A study of Bos taurus with 18 samples.

Results

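The DLK1-DIO3 locus is an imprinted stretch of bovine chromosome 21 that carries one of the largest microRNA (miRNA) clusters of placental mammals, and its mature miRNAs were followed here in small RNA libraries of rumen papillae. Members were all bovine (bta) and human (hsa) entries that carried 1 of 45 miRNA numbers known from the locus and that the deposited files place on chromosome 21. That gave 77 names, of which 15 pairs of a bovine and a human name stood at the same position and were merged, leaving 62 members of 824 miRNAs in all. Of the 45 numbers, 38 had at least 1 member and 7 had none (miR-300, miR-337, miR-544, miR-668, miR-770, miR-889 and miR-1193). Names without a prefix are bovine entries, and human entries keep the prefix hsa.

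Papillae are the finger-like projections of the rumen wall that absorb the acids made by fermentation. The tissue came from 9 Holstein cows that were cannulated and not lactating, sampled first on a diet of 100% forage (FD) and later on a high-grain diet with 65% concentrate (HG). Control cows (CON) numbered 5 and cows given a supplement labelled PHY numbered 4, so that the 18 libraries form the groups FD_CON (n = 5), FD_PHY (n = 4), HG_CON (n = 5) and HG_PHY (n = 4). The meaning of PHY, the start of its feeding relative to the forage samples and the age of the cows were not given in the sources used here. Forage came before grain in every cow, so diet and time cannot be told apart. CON and PHY are different cows, so supplement and cow cannot be told apart either. The libraries hold between 5.74 and 15.2 mega-reads, each counted 1 time per miRNA, and 515 to 591 miRNAs were seen in each. Libraries of 1 group differed by far more than counting noise, with a chi-square per degree of freedom of 86.92 to 1974 over 32 pairs, so none was treated as a copy of another. An epithelial and a smooth muscle marker were abundant, with miR-205 at a mean of 28643 CPM and miR-143 at 133130 CPM.

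At this locus the miRNAs and the long noncoding RNA MEG3 are transcribed from the chromosome inherited from the mother, while the protein genes DLK1, RTL1 and DIO3 are transcribed from the paternal one. Some of the miRNAs, among them miR-127, miR-136, miR-431 and miR-433, lie antisense to RTL1, whose transcript they can cleave. In sheep a mutation in this locus causes the muscular hypertrophy called callipyge. In mice the distal miRNA cluster takes part in the metabolic change of the newborn at birth. In adult mammals the cluster is best known from brain and muscle, and it is low in most other adult tissues.

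The files place the members between positions 67416661 and 67604752 of chromosome 21, a span of 188.1 kb, in a genome build that was not given in the sources used here. Of the 62 members, 61 lie on the plus strand and only miR-299-2 lies on the minus strand. A proximal group of 8 members (miR-493, miR-665, miR-431, miR-433, miR-127, miR-432, miR-136 and miR-370) takes up the first 40.6 kb. After a gap without members, the other 54 members lie between 145.2 and 188.1 kb from the first, starting with miR-379. In the RefSeq gene table of cattle (assembly ARS-UCD2.0, used for names and order only), 55 members matched 49 miRNA genes by name, all 49 of them between DLK1 and DIO3. All 48 neighbouring pairs of these genes stood in the same order as in the files. In that table the hairpins of 5 members, miR-431, miR-433, miR-127, miR-432 and miR-136, lie within RTL1. The hairpins of 3 members, miR-432, miR-136 and miR-370, lie within the noncoding gene MEG8.

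Together the members received 102477 of 172715415 reads counted over all libraries, or 0.0593%. Levels are given as CPM, the raw reads of a miRNA scaled to 1 mega-read of a library size corrected by TMM, a factor that evens out differences in composition between libraries. Mature miRNAs are of nearly equal length, so CPM needs no length correction, but how efficiently each sequence was captured in the libraries was not tested, and the order of members is an order of reads. The most abundant member, miR-379, ranked only 143rd among all miRNAs. Means over the 18 libraries reached 10 CPM in 11 members, lay between 1 and 10 CPM in 26 and stayed under 1 CPM in 25. Reads were present in every library for 33 members, and 7 members had fewer than 10 reads summed over all libraries. Of the 62 members, 43 passed the filter on low counts and could be tested, and 19 did not. The cluster is thus a small and uneven part of the papilla's miRNAs, with a few well counted members and many at the edge of detection.

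**Figure D1:**
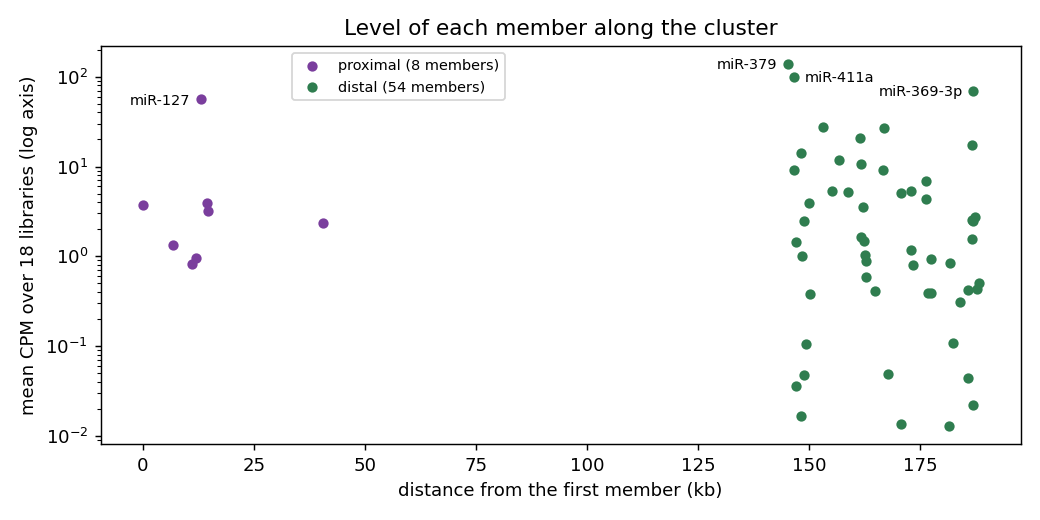
Mean level of each of the 62 members over all 18 libraries (CPM, log axis) against its distance in kb from the first member, miR-493. The members fall into a proximal group within 40.6 kb and a distal group from 145.2 kb on. The highest of the proximal group is miR-127, and the highest of all is miR-379.

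The first 4 members in the order of levels supplied most of the reads. miR-379 (67561884 to 67561904) opens the distal group and averaged 138.57 ± 49.9 CPM (SD, n = 18). miR-411a (67563112 to 67563133), the next hairpin downstream, averaged 99.8 ± 35.5 CPM. miR-369-3p (67603583 to 67603603), known to bind the AU-rich element of the TNF transcript, lies near the far end of the cluster and averaged 70.3 ± 30.5 CPM. miR-127 (67429798 to 67429819), which targets the RTL1 transcript it lies antisense to, averaged 55.9 ± 23.5 CPM. Their SDs overlap from 1 member to the next, but within libraries the order hardly varied. miR-379 was the highest member in 17 of 18 libraries, miR-411a the second in 17, miR-369-3p the third in 17 and miR-127 the fourth in 17. These 4 made up 61.1% ± 2.07 of the cluster's reads (SD, n = 18), with libraries between 57.8% and 65.2%. On the authors' adjusted counts, which divide a read over the entries it maps to, miR-127 was the third in 18 of 18 libraries and miR-369-3p the fourth in 14, and the same 4 made up 59.2% ± 2.27.

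The next 6 members were miR-494 at 27.6 ± 11.4 CPM, miR-487b at 27.2 ± 8.58 CPM, miR-376e at 20.8 ± 8.73 CPM, hsa-miR-409-3p at 17.3 ± 8.03 CPM, miR-380-3p at 13.99 ± 6.56 CPM and miR-495 at 11.7 ± 4.81 CPM. The SDs of neighbours in this part of the order overlap. Within libraries miR-487b exceeded miR-376e in 16 of 18, while the other neighbouring pairs kept their order in 7 to 12 of 18. miR-494, miR-487b and miR-495 are known from mouse work as regulators of blood vessel growth after ischaemia, and hairpins of the miR-376 family are known targets of A-to-I editing in brain. The 10 most abundant members together made up 81.0% ± 1.07 of the cluster's reads. That share stayed between 78.8% and 82.9% in every library, while the level of the whole cluster varied far more.

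The proximal group supplied 12.03% ± 1.16 of the cluster's reads, and most of its summed 72.2 CPM came from miR-127. Its other members were scarce, from 0.823 CPM for miR-431 to 3.92 CPM for miR-432. miR-370, known to target the fatty acid oxidation gene CPT1A, averaged 2.32 CPM. miR-134, known for its role in dendritic spines, was seen in 10 of 18 libraries with 73 reads in all and did not pass the filter. The adjusted counts came to 0.5 of the raw count for miR-369-3p, miR-369-5p, miR-543, miR-496 and miR-1197, and to 0.525 for miR-323b-3p. In the miR-376 family the ratio lay at 0.928 or more. The levels of those 6 members are therefore less certain than the others.

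The abundant members of the cluster varied more between libraries than other miRNAs of their level, and they varied together. The SD of log2(CPM + 0.5) over all libraries had a median of 0.608 for the 10 most abundant members, between 0.478 and 0.730. For the 115 other miRNAs in the same range of levels the median was 0.341, with quartiles of 0.266 and 0.440. All 10 members lay above that upper quartile. These spreads are a description, since the members share libraries and are not independent of each other.

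The libraries FD_PHY 4 and HG_PHY 4 were among the 6 highest for 10 of the 10 most abundant members, and FD_CON 2 was for 8 of 10. FD_CON 1, HG_CON 2 and HG_CON 4 were among the 6 lowest for 10 of 10. High and low libraries of the cluster were thus found on both diets, and the control cows had both. In bulk tissue, fewer cells of a type and less RNA per cell cannot be told apart.

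**Figure D2:**
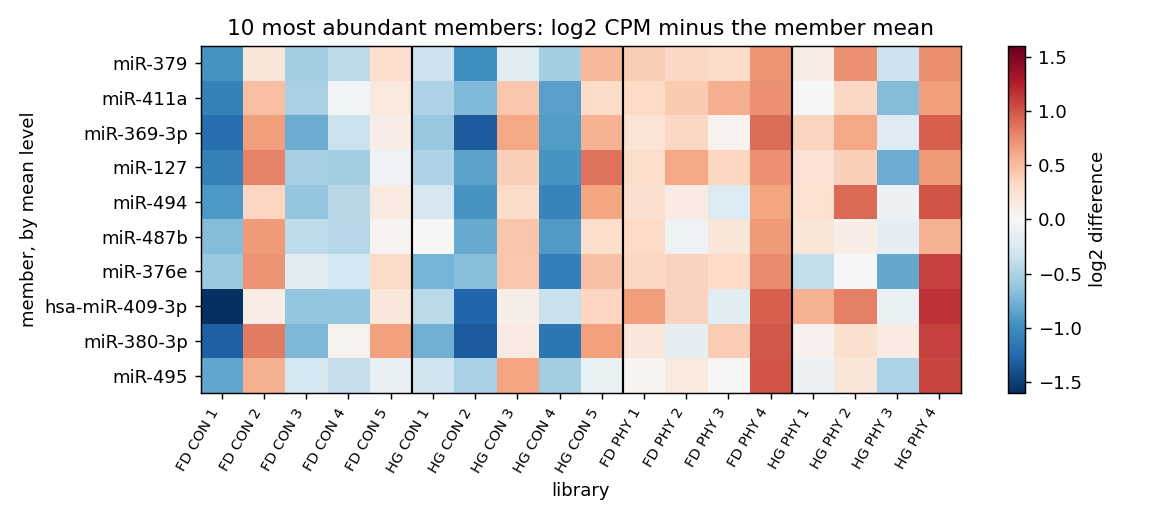
Log2 CPM of the 10 most abundant members (rows) in the 18 libraries (columns, by group), each minus the member's own mean, with red above and blue below it. Columns are mostly of 1 colour: FD_CON 1, HG_CON 2 and HG_CON 4 are blue and FD_PHY 4 and HG_PHY 4 red for all 10 members.

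The summed level of the 62 members showed the same libraries at its ends. In FD_CON the sum was 280.0, 769, 375, 432.02 and 624 CPM for replicates 1 to 5, and in FD_PHY it was 688, 698, 656.05 and 924 CPM. In HG_CON it was 414, 289, 671, 322.997 and 776 CPM, and in HG_PHY 614, 779, 423 and 979.9 CPM. Group means were 495.9 ± 198 CPM in FD_CON (SD, n = 5), 741 ± 123 CPM in FD_PHY (n = 4), 494.5 ± 217 CPM in HG_CON (n = 5) and 699 ± 237 CPM in HG_PHY (n = 4). On both diets the PHY mean stood above the CON mean, and on both the libraries of the 2 groups overlapped on this scale.

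As a share of all reads counted, without the TMM factor, FD_CON held 0.0270% to 0.0627% and FD_PHY 0.0685% to 0.0887%, which do not overlap. HG_CON held 0.0296% to 0.0789% and HG_PHY 0.0429% to 0.0946%, which do. The library that makes the difference between the scales on forage is FD_CON 2, whose TMM factor is 0.815 and whose summed muscle miRNAs reached 300809 CPM, the highest of all libraries. A score summed over members chosen with earlier results known gets no p-value.

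**Figure D3:**
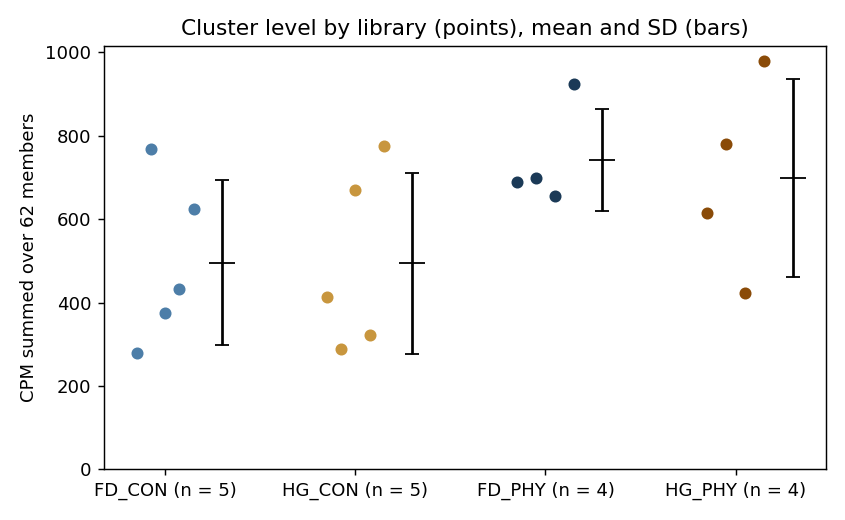
Summed level of the 62 members in each library (CPM, 1 point per library), with the mean and SD of each group. FD and HG stand at similar heights, and the PHY means of 741 and 699 CPM stand above the CON means of 495.9 and 494.5 CPM with overlapping libraries.

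The first question was whether the cluster differed between the forage and the grain diet. Every test was edgeR's quasi-likelihood test on raw counts over all miRNAs that passed the filter, adjusted by the Benjamini-Hochberg method, two-sided, with 0.05 as the threshold. Averaged over CON and PHY cows, 0 of 43 members passed it, against 0.214% of all miRNAs tested. DESeq2 and limma-voom also called 0 members. At an unadjusted p under 0.05, 1 member was higher on grain and 0 were lower, against 4.27% and 6.41% of all miRNAs. The log2 change from forage to grain was above 0 in 15 members (49.1% of all miRNAs) and below 0 in 28 (50.9% of all). Its median was -0.06 over the members and -0.01 over all miRNAs, and with no filter 22 of 62 members were above 0 and 40 below.

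For the 4 most abundant members the estimated log2 diet difference lay between -0.21 and 0.06, but the intervals reached from -0.67 to 0.64. miR-379 averaged 140.0 ± 46.1 CPM over the 9 forage libraries (SD) and 137 ± 56.3 CPM over the 9 grain libraries, which is a log2 difference of -0.03 with a 95% interval of -0.45 to 0.39. miR-411a averaged 107 ± 35.8 and 92.2 ± 35.5 CPM, a difference of -0.21 with an interval of -0.67 to 0.25. For miR-369-3p the log2 difference was 0.06 (interval -0.51 to 0.64), and for miR-127 it was -0.09 (interval -0.65 to 0.47). The sign of the values of miR-379, miR-369-3p and miR-127 depended on single libraries, and the median over all members lay between -0.18 (without HG_PHY 4) and 0.05 (without FD_CON 2). The intervals bound the diet difference of these 4 members only, and within them it cannot be told from 0.

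The member with the lowest diet p was scarce. miR-411c-3p had 0.512, 0, 0.515, 0 and 0.748 CPM in FD_CON and 2.34, 1.25, 0.438 and 0.764 CPM in FD_PHY. On grain it had 1.58, 0.803, 1.57, 0.310 and 2.97 CPM in HG_CON and 1.53, 1.38, 1.05 and 3.58 CPM in HG_PHY. Forage and grain overlapped, and 8 of 9 grain libraries exceeded the forage mean. Its log2 change was 1.34 ± 0.55 (SE), which did not pass edgeR's test (adjusted p = 0.330), although it was the largest positive value among the 468 miRNAs. It had 199 reads in all 18 libraries together.

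The other members that the naming rule took for this comparison, those with the next lowest p, did not pass either. Above 0 were hsa-miR-411-3p with a log2 change of 0.45 ± 0.29, miR-432 with 0.44 ± 0.26 and miR-433 with 0.51 ± 0.34. Below 0 were miR-411b with -0.99 ± 0.56, miR-487a with -0.74 ± 0.51, miR-369-5p with -0.63 ± 0.42 and hsa-miR-329-3p with -0.23 ± 0.22. All but hsa-miR-411-3p averaged under 5 CPM. The value of miR-369-5p was -0.25 without FD_CON 2, a library in which it stood at 6.29 CPM against 0.341 to 2.01 CPM in the rest of its group. The 8 proximal members were evenly divided, 4 above and 4 below 0, and of the 35 distal ones 11 were above and 24 below.

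Within control cows alone, 0 of 43 members passed edgeR's test between the diets, as did 0% of all miRNAs. DESeq2 and limma-voom called 0 too. At an unadjusted p under 0.05 it was 1 higher (3.85% of all miRNAs) and 0 lower (6.84% of all). Members lay above 0 in 24 cases (46.2% of all miRNAs) and below in 19 (53.8% of all), with a median of 0.03 against -0.02 for all. The lowest p belonged to miR-411c-3p, with a change of 1.99 ± 0.77, then miR-411b (-1.47 ± 0.79), miR-411c-5p (-0.91 ± 0.57) and miR-410 (0.71 ± 0.45). The median moved to -0.21 without HG_CON 5 and to 0.22 without FD_CON 2.

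Within PHY cows, too, 0 of 43 members passed between the diets, and 0% of all miRNAs, with 0 by DESeq2 and limma-voom. None had an unadjusted p under 0.05 in either direction, against 3.63% higher and 3.42% lower of all miRNAs. Members lay above 0 in 17 cases (50.6% of all miRNAs) and below in 26 (49.4% of all), with a median of -0.08 against 0.01. Named by the rule were miR-432 (0.64 ± 0.39), miR-299 (-0.83 ± 0.60), hsa-miR-411-3p (0.56 ± 0.44) and miR-654 (-0.62 ± 0.56). The median ranged from -0.25 without HG_PHY 4 to 0.12 without HG_PHY 3.

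The second question was whether cows given PHY differed from control cows on each diet. On forage, 0 of 43 members passed edgeR's test, as did 0% of all miRNAs, and DESeq2 and limma-voom called 0. At an unadjusted p under 0.05, 5 members were higher in PHY (2.14% of all miRNAs) and 0 were lower (2.56% of all). The log2 difference, PHY against CON, was above 0 in 41 members (44.4% of all miRNAs) and below 0 in 2 (55.6% of all), miR-411c-5p and miR-376c. Its median was 0.52 over the members and -0.04 over all miRNAs. With no filter 54 of 62 members were above 0 and 5 below.

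On grain, 0 of 43 members passed edgeR's test, and 0% of all miRNAs, and the other tools called 0. At an unadjusted p under 0.05, 5 were higher in PHY (4.7% of all miRNAs) and 0 lower (2.14% of all). The difference was above 0 in 40 members (50.2% of all miRNAs) and below 0 in 3 (49.8% of all), miR-299, miR-654 and miR-323. The median was 0.53 over the members and 0.00 over all miRNAs, and with no filter 49 of 62 were above 0 and 10 below. On each diet all 8 proximal members were above 0, as were 33 of 35 distal members on forage and 32 of 35 on grain. Because the members vary together from library to library, such a count is not a count of independent observations. The cows on the 2 diets are the same animals, so the grain values do not repeat the forage values in other cows.

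The size of this difference moved with single libraries. On forage the median lay between 0.37 without FD_CON 1 and 0.75 without FD_CON 2, and the number at an unadjusted p under 0.05 between 1 (without FD_PHY 4) and 14 (without FD_CON 2). On grain the median lay between 0.30 without HG_PHY 4 and 0.84 without HG_CON 5, and that number between 2 (without HG_CON 2) and 13 (without HG_CON 5). It stayed above 0 with every one of the 18 libraries left out in turn.

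**Figure D4:**
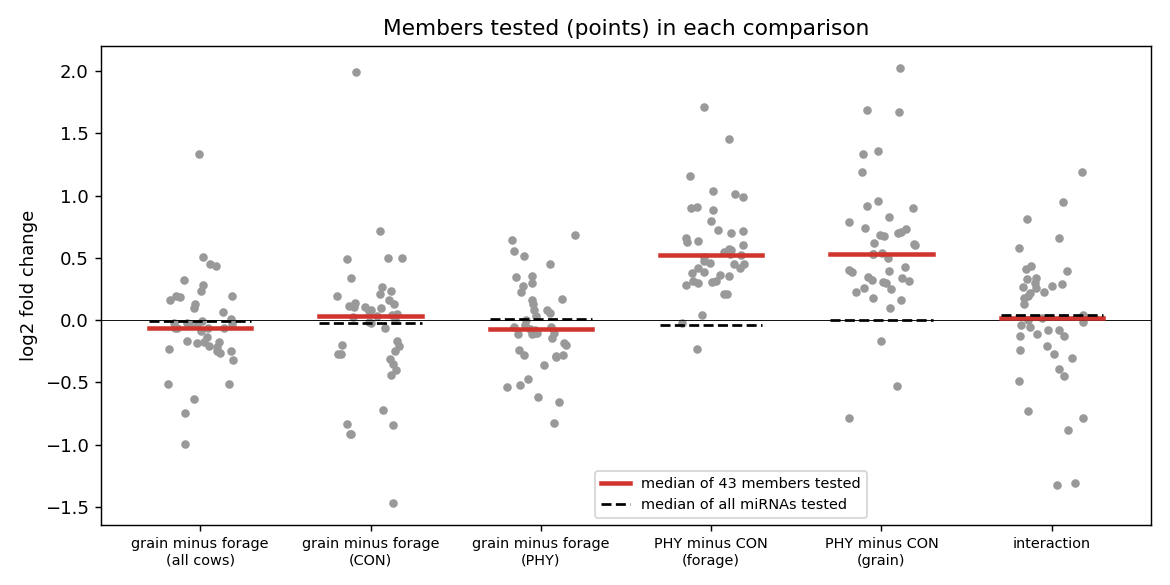
Log2 fold change of the 43 tested members (1 point each) in the 6 comparisons, with the members' median in red and that of all miRNAs tested as a dashed line. In both PHY minus CON comparisons most points lie above 0, with medians of 0.52 and 0.53, while in the diet comparisons and the interaction they lie on both sides of 0.

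On each diet the naming rule took 4 members, and on both these were miR-379, hsa-miR-409-3p, miR-382 and hsa-miR-412-5p. The lead member of the cluster, miR-379, had 67.2, 149, 87.8, 97.1 and 156 CPM in FD_CON and 170.1, 163, 159 and 211 CPM in FD_PHY. Every FD_PHY library stood above every FD_CON library, which held for 1 of 43 members and 0.855% of all miRNAs. On grain it had 103, 65.8, 113, 89.1 and 187 CPM in HG_CON and 140.5, 215, 103 and 218 CPM in HG_PHY, which overlap. The log2 difference was 0.66 ± 0.28 on forage (edgeR adjusted p = 0.929) and 0.60 ± 0.28 on grain (adjusted p = 0.677).

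hsa-miR-409-3p, from a hairpin near the far end of the cluster (67603292 to 67603313), had 4.86, 16.7, 9.995, 10.1 and 17.4 CPM in FD_CON and 24.4, 19.9, 13.7 and 29.9 CPM in FD_PHY. On grain it had 11.4, 6.42, 16.4, 12.1 and 19.6 CPM in HG_CON and 22.6, 26.98, 14.3 and 34.3 CPM in HG_PHY. On each diet 3 of 4 PHY libraries were above all CON libraries, and FD_PHY 3 and HG_PHY 3 were not. The log2 difference was 0.90 ± 0.35 on forage (edgeR adjusted p = 0.929) and 0.90 ± 0.35 on grain (adjusted p = 0.654).

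miR-382 (67592888 to 67592909) had 3.67, 3.95, 3.40, 5.84 and 7.10 CPM in FD_CON and 8.63, 8.13, 7.003 and 12.2 CPM in FD_PHY. In HG_CON it had 3.799, 2.71, 6.72, 5.26 and 7.80 CPM and in HG_PHY 11.1, 11.9, 4.52 and 9.97 CPM. The groups overlapped on forage by 1 library, FD_PHY 3 against FD_CON 5, and on grain through HG_PHY 3. The difference was 0.91 ± 0.34 on forage (edgeR adjusted p = 0.929) and 0.83 ± 0.34 on grain (adjusted p = 0.677).

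hsa-miR-412-5p (67603405 to 67603427), whose 264 reads lie next to miR-409 and miR-369, had 0.768, 2.18, 0, 0.704 and 0.561 CPM in FD_CON and 2.34, 2.71, 1.605 and 2.77 CPM in FD_PHY. In HG_CON it had 0.475, 0.502, 0.315, 0.723 and 1.32 CPM and in HG_PHY 2.59, 4.04, 1.89 and 2.57 CPM. On grain every PHY library stood above every CON library, which held for 1 of 43 members and 2.14% of all miRNAs. On forage only FD_CON 2 reached into the PHY range. The log2 difference was 1.45 ± 0.61 on forage (edgeR adjusted p = 0.929) and 2.03 ± 0.63 on grain (adjusted p = 0.286), the latter the largest of all 468 miRNAs. These libraries held between 0 and 35 of its reads each.

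Averaging the supplement difference over both diets was added after the data had been seen. In that comparison 0 of 43 members passed edgeR's test, against 0.214% of all miRNAs. At an unadjusted p under 0.05, 12 members were higher in PHY (5.77% of all miRNAs) and 0 lower (3.63% of all). With single libraries left out in turn this number ran from 5 (without FD_PHY 4 or HG_PHY 4) to 21 (without FD_CON 2), and the median difference from 0.41 (without HG_PHY 4) to 0.65 (without HG_CON 5). With limma-voom with quality weights the number was 26 and the median 0.75. The difference was above 0 in 41 members (45.3% of all miRNAs) and below in 2 (54.7% of all), miR-299 and miR-654, with a median of 0.49 against -0.02 for all. hsa-miR-412-5p averaged 0.754 ± 0.605 CPM in CON (SD, n = 10) and 2.56 ± 0.722 CPM in PHY (n = 8), a log2 difference of 1.74 ± 0.44 (edgeR adjusted p = 0.176), with 8 of 8 PHY libraries above the CON mean. hsa-miR-409-3p stood at 0.90 ± 0.25 (adjusted p = 0.196), miR-382 at 0.87 ± 0.24 (adjusted p = 0.196) and miR-379 at 0.63 ± 0.20 (adjusted p = 0.302).

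Other tools placed some of these on the other side of the threshold. DESeq2 called 3 members in the averaged comparison, hsa-miR-412-5p (adjusted p = 0.00868), hsa-miR-409-3p (adjusted p = 0.0395) and miR-382 (adjusted p = 0.0455). Limma-voom with quality weights called hsa-miR-412-5p alone (adjusted p = 0.0447), as did edgeR without FD_CON 2 (adjusted p = 0.0154). These p-values treat 2 libraries of a cow as independent, so they are too small for a comparison between cows.

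Marker miRNAs of the cell types that a biopsy of the wall could hold were set beside this difference. In the averaged comparison of PHY with CON, 45.3% of all miRNAs lay above 0. In the fibroblast and mesenchyme list it was 0 of 7, in the muscle list 0 of 5 and in the epithelium list 2 of 6. In the leukocyte list it was 2 of 7, in the erythroid list 0 of 3 and in the endothelium list 0 of 2. Of the neural list 6 of 9 lay above 0, with a median of 0.14, and none of any list passed edgeR's test. Summed muscle miRNAs ranged from 139807 to 300809 CPM in FD_CON, 130292 to 167415 in FD_PHY, 104455 to 134421 in HG_CON and 103798 to 113139 in HG_PHY, nearly all of it miR-143. Of the striated muscle miRNAs in that list, miR-1 averaged 578 CPM and miR-133a 24.98 CPM, while miR-206, miR-133b and hsa-miR-133a-5p averaged under 1 CPM. Summed fibroblast miRNAs ranged from 9305 to 12292 CPM in FD_CON, 8019 to 11910 in FD_PHY, 7360 to 10774 in HG_CON and 7562 to 11114 in HG_PHY. Summed neural miRNAs ranged from 1908 to 2755 CPM in FD_CON, 2284 to 3018 in FD_PHY, 2209 to 3359 in HG_CON and 2292 to 2873 in HG_PHY, and the neuronal hsa-miR-124-3p averaged 56.5 CPM. The medians in the averaged comparison were -0.23 for the muscle list and -0.10 for the fibroblast list. On grain alone 3 of 7 fibroblast miRNAs lay above 0. On forage alone, 6 of 7 leukocyte miRNAs and 8 of 9 neural miRNAs lay above 0 (44.4% of all miRNAs), with medians of 0.17 and 0.19. On grain alone it was 2 of 7 and 5 of 9 (50.2% of all miRNAs), with medians of -0.18 and 0.19. The part of any of these cell types in the cluster's difference was not tested.

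Between the diets, 0 of 5 muscle and 0 of 7 fibroblast miRNAs lay above 0, against 49.1% of all miRNAs. Their medians were -0.35 and -0.25, while the cluster's median was -0.06. A list of 4 miRNAs of other imprinted loci, miR-296-3p, miR-296-5p, miR-335 and miR-483, served for comparison. In the averaged supplement comparison 0 of these 4 lay above 0 (median -0.14), and in the diet comparison 2 of 4 did (median -0.03). They too had 0 members past edgeR's threshold.

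Whether the diet difference depended on the supplement was tested by the interaction. For 0 of 43 members did it pass edgeR's test, and for 0% of all miRNAs, and DESeq2 and limma-voom called 0. None had an unadjusted p under 0.05, against 1.28% of all miRNAs above and 0.855% below. Members lay above 0 in 23 cases (56.4% of all miRNAs) and below in 20 (43.6% of all), with a median of 0.01 against 0.04 for all. The split turned with single libraries, from 12 of 44 above 0 without HG_PHY 4 to 32 of 46 without FD_PHY 4, and it was 20 above and 23 below with RLE scaling or DESeq2. The median lay between -0.20 without FD_CON 2 and 0.20 without HG_CON 5. The rule named miR-299 (-1.32 ± 0.80), miR-411c-5p (1.19 ± 0.85), miR-323 (-0.73 ± 0.54) and miR-411c-3p (-1.31 ± 1.09), each with an edgeR adjusted p of 0.997. For hsa-miR-409-3p the interval of the interaction was -1.08 to 1.09, so the forage and the grain differences were not shown to be alike.

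A hairpin gives 2 mature miRNAs, 1 from its 5p and 1 from its 3p arm, and the balance of the 2 is taken within a library. Both arms were listed for 12 hairpins. In none did both reach 10 CPM, and the 6 in which both averaged at least 1 CPM are described, a limit chosen after the values were seen. No test was made on these balances.

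The miR-411 hairpin was read mostly from its 5p arm, miR-411a. The 5p share was 91.3%, 93.2%, 95.5%, 94.7% and 90.4% in FD_CON and 92.3%, 95.1%, 96.3% and 91.5% in FD_PHY. On grain it was 90.8%, 94.4%, 92.3%, 86.8% and 89.8% in HG_CON and 91.2%, 88.9%, 86.8% and 87.8% in HG_PHY. Group means were 93.0% ± 2.16 in FD_CON (SD, n = 5), 93.8% ± 2.24 in FD_PHY (n = 4), 90.8% ± 2.84 in HG_CON (n = 5) and 88.7% ± 1.86 in HG_PHY (n = 4). All HG_PHY libraries stood below all FD_PHY libraries, by a narrow margin of 91.2% against 91.5%, while FD_CON and HG_CON overlapped. Of the 6 hairpins described, this was the only 1 whose diets did not overlap in PHY cows, and in CON cows there were 0. Between CON and PHY there were 0 of 6 on forage and 0 of 6 on grain. The share over all hairpins of the libraries was not taken, so the gap is given as a description only. The reads behind it were 17112 of the 5p and 1580 of the 3p arm.

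The miR-369 hairpin was read almost wholly from its 3p arm, with a 5p share of 3.94% ± 1.56 on forage and 2.66% ± 0.87 on grain (SD, n = 9 each), which overlap. miR-409 was also mostly 3p, with a 5p share of 13.0% ± 6.501 over all libraries, and so was miR-376c, with 12.5% ± 7.25 (n = 18 each). miR-382 gave both arms in like amounts, with a 5p share of 60.8% ± 10.5. The scarce miR-411c hairpin had a 5p share of 87.6% ± 11.1 on forage and 67.1% ± 24.97 on grain, with single libraries between 16.7% and 100%. So the arm that dominates differs between hairpins of the same cluster, and for miR-411, miR-369, miR-409 and miR-376c it was the same in every library.

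**Figure D5:**
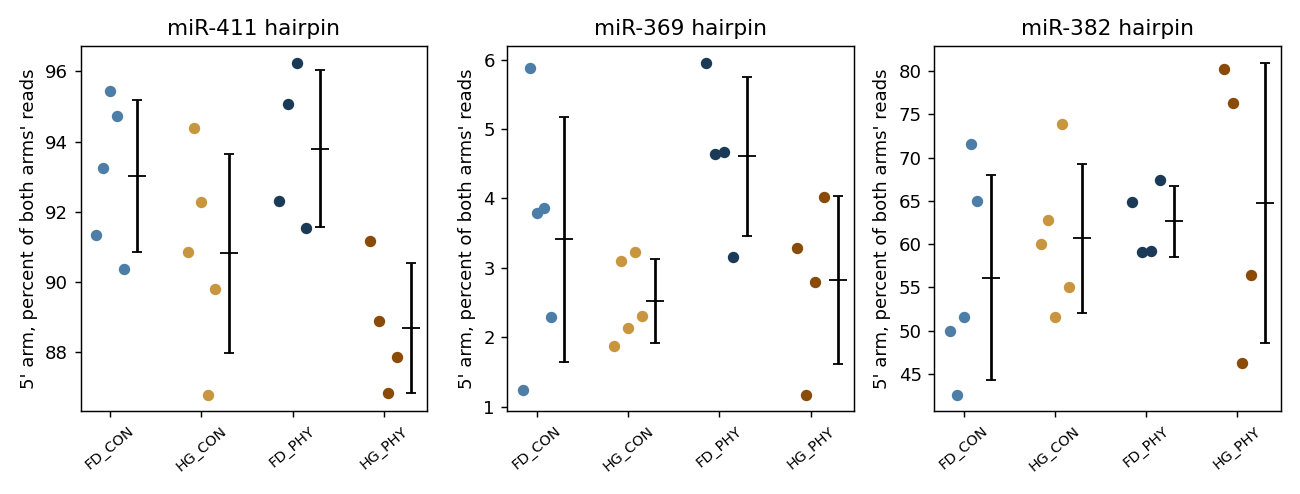
Share of the 5p arm in the reads of both arms (percent, 1 point per library, with mean and SD of each group) for the hairpins of miR-411, miR-369 and miR-382; each panel has its own axis, which does not start at 0. For miR-411 the HG_PHY libraries lie below all FD_PHY libraries by a narrow margin, and for miR-382 all groups overlap.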

How the data were processed

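Small RNA was sequenced from 18 libraries of rumen papillae. The kits were NucleoSpin miRNA for extraction and NETflex for the libraries, per the labels' protocols. Both bcl2fastq 2.20 and DESeq2 are listed in the submitters' processing notes. How reads were aligned and counted, and on which build, was not given in the sources used here. The authors deposited, per the file headers, a raw read count for each mature name and an expected count adjusted for reads that map to several places; the latter, rounded, served as an alternative. A deposited table of normalized values for the series was not used.

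Names with an overlap of 15 nt or more were merged, as were bta and hsa entries of 1 miRNA whose totals lay within 5%, and the name with the highest total kept, which left 824 miRNAs. Raw counts were scaled by TMM, filtered with filterByExpr and tested with edgeR 4.0.16 (R 4.3.3) over all 18 libraries with a mean per group, on 468 miRNAs. No term for the cow was used. P-values measure the spread between libraries, 2 per cow. Spreads are SDs of log2(CPM + 0.5). Alternatives used DESeq2 1.42.0 and limma 3.58.1, other scalings and filters, adjusted counts, unmerged names and each library left out. The diet tests were also run on simulated counts without a cow effect and without miRNAs that vary together. That check says nothing about these features or about the supplement comparisons. The text names the 10 most abundant members, the 8 with the lowest p for the averaged diet comparison and the 4 with the lowest p for each other one. The members, lists and rules were chosen with earlier results of these data known, and the averaged supplement comparison was added after the data were seen. The marker lists took any arm or copy of a named miRNA. Sequences of the miRNAs were not used here.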

Additional observations from a re-analysis of the deposited data

Results flagged for a closer look

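Among 104 groups of 4 or 5 libraries, over 26 quantities, 7 held 1 library far above the rest of its group (Dixon's test at 95%); chance alone picks about 5% of groups. miR-495 stood out in 2 groups, in FD_PHY 4 at 21.9 CPM against 11.1 to 12.2 CPM in the others and in HG_CON 3 at 16.9 CPM against 7.43 to 10.1 CPM. In FD_PHY 4, miR-376e stood at 32.2 CPM against 23.8 to 24.7 CPM and miR-411c-5p at 9.16 CPM against 3.94 to 4.39 CPM. In HG_PHY 4, miR-380-3p stood at 26.4 CPM against 13.0 to 14.8 CPM. In FD_CON 2, miR-369-5p stood at 6.29 CPM against 0.341 to 2.01 CPM, and in HG_CON 3, miR-433 stood at 1.99 CPM against 0.702 to 0.950 CPM. All 7 were high values. A count of 7 in 104 is near that 5%, and the quantities vary together, so the flags are not read as a pattern. The 4 in FD_PHY 4 or HG_PHY 4 come from the same values that placed these libraries high, so they add no separate evidence.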

How the results depend on the processing

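In the 6 planned comparisons 0 members were called under any alternative run, a threshold of 0.1 included. In the averaged supplement comparison the count of 0 became 3 with DESeq2, 1 with limma-voom with quality weights and 0 to 1 with single libraries left out, 1 being without FD_CON 2; the cause was not tested. The diet change of miR-379, -0.03, was 0.034 with limma-voom and ran from -0.16 to 0.086 with single libraries left out; that of miR-369-3p ran from -0.073 to 0.21 and that of miR-127 from -0.26 to 0.084. The members' share of reads in FD_PHY, 0.0752%, was 0.0962% with adjusted counts. Over all libraries no member's adjusted count exceeded its raw count, so the rise lies in a smaller total of adjusted reads. Whether a replicate number marks the same cow on both diets was not given in the sources used here, and the data do not settle it: of 9 pairs across diets 3 had deviations correlated above 0.1 (-0.016 to 0.393), and 2 correlated best with their own number. With the replicate number as a block, edgeR called 0 members in each diet comparison and the interaction, and a random block in limma-voom (consensus correlation 0.232) called 0. Most members are under 10 CPM, where counting noise limits what can be seen.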
